A study of Homo sapiens with 6 samples.

Results

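The MYC network is a family of transcription factors that compete for a shared partner, and its transcripts were followed in 786-O cells in which the long non-coding RNA LINC02068 was targeted by RNA interference. The 10 genes MYC, MYCL, MAX, MXD1, MXD3, MXD4, MXI1, MNT, MGA and MLX were taken by symbol from a count table of 60649 genes. The 786-O line is derived from a human clear cell renal carcinoma, lacks working VHL and was grown in RPMI-1640 with serum. There were 3 groups of 2 libraries and no other treatment: cells with a hairpin against LINC02068 (shRNA1), cells with another hairpin against it (shRNA2), and cells with a hairpin used as control (shControl). All 6 libraries share the line and its VHL loss. Whether replicates were separate cultures is not stated, so the p-values measure the spread between these libraries, which may be technical.

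Proteins of this family pair through a basic helix-loop-helix leucine zipper and bind the E-box, a short DNA motif. MYC and its relative MYCL activate transcription as heterodimers with MAX, whereas the MXD proteins (MXI1 among them), MNT and MGA also pair with MAX and repress many of the same sites. MLX forms a parallel branch: it pairs with the nutrient-sensing Mondo proteins MLXIP and MLXIPL, and with some MXD proteins and MNT. MYC mRNA and protein are short-lived and follow growth signals, and several MXD genes are known to rise when cells leave the cycle and differentiate.

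Library totals ran from 15376448 to 37311846 counts, and 1 CPM (counts-per-million, after TMM scaling of library sizes) stood for 14.9 to 36.0 counts. The test covered 16039 genes, all 10 network genes among them, with edgeR's quasi-likelihood F test and Benjamini-Hochberg adjustment over those genes, and a gene was called at an adjusted p under 0.05. LINC02068 itself was rare, with 9 and 2 counts in shRNA1, 17 and 10 counts in shRNA2 and 20 and 32 counts in shControl. For the mean of both hairpins it fell by 1.46 ± 0.59 on the log2 scale (± is the SE for log2 values throughout, adjusted p = 0.0447), a call that was lost in 9 of 13 other settings (range −2.26 to −1.02), including the replicate block (−1.52, adjusted p = 0.0506). With each hairpin alone LINC02068 was not called: −1.70 ± 0.75 with shRNA1 (adjusted p = 0.069) and −1.21 ± 0.68 with shRNA2 (adjusted p = 0.148). The libraries of both hairpins are called knockdown libraries below, after their labels. All 7 markers of renal carcinoma cells were detected in every library. PAX8 was at 315 to 335 CPM in the knockdown libraries and 306 and 307 CPM in shControl. It was called higher (log2 change 0.10), as were PAX2 (0.56), CDH6 (0.89), KRT8 (0.90), KRT18 (0.27) and VIM (0.21). EPAS1 (−0.96) was called lower. Of 10 markers of other cell types, 5 were at 0 in every library (PTPRC, CD3E, CDH5, DCN and ALB), and the summed level of the 10 was 44.5 to 52.2 CPM in the knockdown libraries and 49.1 and 51.5 CPM in shControl. CD68 made up most of that sum, and without it the level was 6.99 to 8.21 CPM in the knockdown libraries, against 13.2 and 11.9 CPM in shControl. The fibroblast and pericyte markers PDGFRB (log2 change −1.06 ± 0.28, adjusted p = 0.00418) and LUM (−0.72 ± 0.17, adjusted p = 0.00161) were lower, and their part in the network's changes was not tested. On principal components of log2 CPM over all tested genes the first axis held 55.3% of the variance and separated the knockdown libraries from shControl. On the second axis (15.1%) shRNA1 replicate 1 lay at 50.4 and the remaining libraries between −23 and 4.99. Without that library the log2 changes were −0.90 for MYC, 1.25 for MXD4 and −1.32 for MXI1, all still called.

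Against shControl, the mean of both hairpins called 4 of the 10 network genes: MYC and MXI1 fell, and MXD4 and MYCL rose. The other 6 genes, MAX, MXD1, MXD3, MNT, MGA and MLX, were not called. Of all tested genes 57.5% were called, 28.6% higher and 28.9% lower, so a count of 4 in 10 was no larger than the background share. The median log2 fold change of the 10 genes was 0.13, beside −0.03 for all tested genes. The knockdown and shControl libraries did not overlap in 5 of the 10 genes (MYC, MYCL, MAX, MXD4 and MXI1), beside 67.0% of all tested genes. With shRNA1 alone 3 genes were called (MYC, MXI1, MXD4), where 52.4% of all tested genes were, and with shRNA2 alone 4 (the same 3 and MYCL), where 52.8% were. The 2 hairpin comparisons share their shControl libraries. In bulk libraries such as these, a lower level in every cell and a smaller share of expressing cells cannot be told apart.

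**Figure D1:**
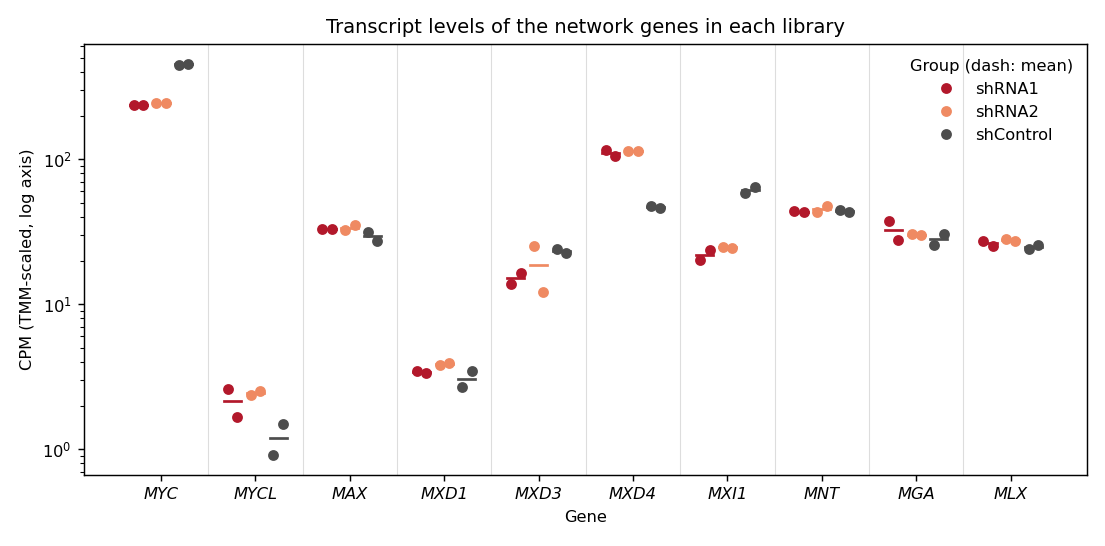
Level of each network gene in CPM (log axis) in the shRNA1, shRNA2 and shControl libraries, one point per library with group means as bars. MYC lies at 235 to 245 CPM in the 4 knockdown libraries and at 447 and 456 CPM in shControl, whereas MNT lies between 43.4 and 47.2 CPM in all 6.

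MYC, the network's main activator, stood at 237 and 235 CPM in shRNA1 and 245 and 242 CPM in shRNA2, against 447 and 456 CPM in shControl. The 4 knockdown libraries lay within a narrow band well below both shControl libraries. MYC fell by 0.91 ± 0.03 on the log2 scale for the mean of both hairpins (95% interval −0.98 to −0.85, adjusted p = 8.49e-13), a level 0.531 times that of shControl. The change was −0.94 ± 0.04 with shRNA1 (adjusted p = 8.23e-12) and −0.89 ± 0.03 with shRNA2 (adjusted p = 1.15e-11). MYC stayed the most abundant member per length in each group, at 78.7 CPM per kb of exon in shRNA1, 81.1 in shRNA2 and 150 in shControl. Among 12915 tested coding genes its level per kb was above 96.3% of them in shRNA1, 96.4% in shRNA2 and 98.8% in shControl. PVT1, a long non-coding RNA gene that neighbours MYC, fell too, at 10 and 11.7 CPM in shRNA1 and 10.8 and 11.1 CPM in shRNA2, against 25.4 and 24.8 CPM in shControl (log2 change −1.21 ± 0.10, adjusted p = 6.3e-08). CASC11 and POU5F1B, also neighbours, were too low to test. In GENCODE 29 on GRCh38, MYC (ENSG00000136997.21) spans chromosome 8 from 127735434 to 127741434 on the plus strand, with 3001 bases of merged exon.

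MYCL, a MYC relative with a more restricted expression, was near the lower limit of the data. Its counts were 39 and 32 in shRNA1 and 85 and 53 in shRNA2, against 17 and 42 in shControl, or 2.62 and 1.67 CPM, 2.36 and 2.54 CPM, and 0.912 and 1.5 CPM. All 4 knockdown libraries were higher than both shControl libraries, though the 95% Poisson intervals of shRNA1 replicate 2 (1.14 to 2.36 CPM) and shControl replicate 2 (1.08 to 2.03 CPM) overlapped. Such intervals cover counting error only. MYCL rose by 0.89 ± 0.33 on the log2 scale for the mean of both hairpins (interval 0.18 to 1.61, adjusted p = 0.0325). The change was 0.79 ± 0.38 with shRNA1 (adjusted p = 0.0968) and 0.99 ± 0.37 with shRNA2 (adjusted p = 0.0346). The call was lost in 7 of 14 other settings, which covered single libraries, the scaling and the test: without shControl replicate 1 the change was 0.60 (adjusted p = 0.255), without shRNA1 replicate 1 it was 0.74 (adjusted p = 0.0892), and DESeq2 gave 0.91 (adjusted p = 0.0839). It was also lost without shRNA2 replicate 1 (0.91, adjusted p = 0.0551) and without shRNA2 replicate 2 (0.87, adjusted p = 0.0655). Total counts gave 0.74 (adjusted p = 0.0701), and a test against a fold of 1.2 gave an adjusted p of 0.0644. MYCL lies on chromosome 1 from 39895426 to 39902256, minus strand (ENSG00000116990.11). MYCN, the third MYC paralogue and no member of the set, had 0 counts in every library, with upper 95% Poisson limits of 0.103 to 0.248 CPM.

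MAX, the partner that MYC, the MXD proteins, MNT and MGA share, was at 33.2 and 33 CPM in shRNA1 and 32.5 and 35.1 CPM in shRNA2, against 31.6 and 27.5 CPM in shControl. The knockdown libraries were all above both shControl libraries, but by little. The change of 0.18 ± 0.08 on the log2 scale was not called (interval 0.01 to 0.35, adjusted p = 0.0728). It was called without shControl replicate 1 (0.27, adjusted p = 0.034) and with a correction for exon length and GC content (0.23, adjusted p = 0.0256). In the other direction it was 0.07 without shControl replicate 2 (adjusted p = 0.581) and 0.02 with total counts (adjusted p = 0.831). MAX spans chromosome 14 from 65006174 to 65102695 on the minus strand (ENSG00000125952.20).

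The MXD genes MXD4 and MXI1 were the members with the largest changes and moved in opposite directions. MXD4, which encodes a MAX-binding repressor that recruits the SIN3 co-repressor, stood at 115 and 105 CPM in shRNA1 and 114 and 114 CPM in shRNA2, against 47.6 and 45.8 CPM in shControl. The knockdown and shControl libraries were far apart relative to the spread within groups. MXD4 rose by 1.26 ± 0.05 on the log2 scale (interval 1.15 to 1.38, adjusted p = 2.56e-11), a 2.4-fold higher level. The hairpins gave 1.23 ± 0.06 (shRNA1, adjusted p = 1.74e-10) and 1.29 ± 0.06 (shRNA2, adjusted p = 8.54e-11). MXD4 (ENSG00000123933.17) lies on chromosome 4 from 2247432 to 2262294, minus strand.

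MXI1, which encodes a repressor of the same family and is known as a hypoxia-inducible gene, was at 20.2 and 23.8 CPM in shRNA1 and 25 and 24.4 CPM in shRNA2, against 58.1 and 64.4 CPM in shControl. Every knockdown library was below 26 CPM and the groups did not overlap. MXI1 fell by 1.39 ± 0.08 on the log2 scale (interval −1.56 to −1.23, adjusted p = 5.25e-10), a level 0.381 times that of shControl. With shRNA1 the change was −1.47 ± 0.10 (adjusted p = 4.44e-09) and with shRNA2 −1.31 ± 0.09 (adjusted p = 1.12e-08). EPAS1, a HIF subunit gene, is given here after its values were seen. It was at 281 and 282 CPM in shRNA1 and 283 and 283 CPM in shRNA2, against 542 and 559 CPM in shControl (log2 change −0.96 ± 0.03, adjusted p = 3.59e-13). The part of EPAS1 in the MXI1 difference was not tested. MXI1 (ENSG00000119950.21) spans chromosome 10 from 110207605 to 110287365, plus strand.

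Promoter sequences of these 2 genes are shown because they are the members that moved most, and in opposite directions. The windows run from 250 bases before to 50 bases after a transcription start, 5′ to 3′ on the gene's strand, and come from RefSeq on GRCh38.p14. Capitals mark the sequences ACGTG and GCGTG on either strand. ACGTG lies within the palindromic E-box CACGTG, so that a whole E-box appears in capitals, while neither sequence alone is an E-box. MXD4 has a single window at chr4:2262060-2262359 on the minus strand, and the first MXI1 window shown is chr10:110209981-110210280 and the second chr10:110225746-110226045, both on the plus strand.
MXD4: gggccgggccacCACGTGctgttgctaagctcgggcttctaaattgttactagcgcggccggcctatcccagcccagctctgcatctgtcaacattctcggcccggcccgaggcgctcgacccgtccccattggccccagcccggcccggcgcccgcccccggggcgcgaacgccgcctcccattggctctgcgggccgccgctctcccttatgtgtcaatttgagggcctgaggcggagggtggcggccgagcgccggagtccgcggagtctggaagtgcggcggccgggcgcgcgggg
MXI1 first window shown: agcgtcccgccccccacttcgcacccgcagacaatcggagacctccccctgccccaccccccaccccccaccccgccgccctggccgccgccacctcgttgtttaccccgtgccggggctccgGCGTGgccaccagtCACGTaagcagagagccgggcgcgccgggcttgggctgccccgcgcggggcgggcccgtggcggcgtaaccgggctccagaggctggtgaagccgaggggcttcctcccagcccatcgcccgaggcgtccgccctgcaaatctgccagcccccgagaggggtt
MXI1 second window shown: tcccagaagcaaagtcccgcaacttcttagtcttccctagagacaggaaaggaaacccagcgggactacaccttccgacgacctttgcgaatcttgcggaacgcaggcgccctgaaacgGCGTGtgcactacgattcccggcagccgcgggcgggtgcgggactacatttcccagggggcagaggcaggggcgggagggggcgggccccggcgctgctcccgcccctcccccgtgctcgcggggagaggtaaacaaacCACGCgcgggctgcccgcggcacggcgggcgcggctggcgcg
The MXD4 window holds the E-box CACGTG at offset −238 from the start, and the MXI1 windows shown hold none. A further MXI1 window, not shown, holds neither ACGTG nor GCGTG on either strand. RefSeq windows were found for 9 of the 10 members (14 windows in all, none for MYC), and 3 of the 14 held CACGTG (MXD4, MNT and MLX), beside 7.26% of all 35116 windows of this length. By gene, 3 of the 9 members held CACGTG, beside 8.77% of all genes with a window. The marked sequences, ACGTG or GCGTG on either strand, were in 11 of the 14 and in 48.4% of all windows, and every CACGTG counts among them. Some members have several windows. The shares are not matched for GC content, which was 55% to 76% in the member windows. These matches describe the letters in the windows only.

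**Figure D2:**
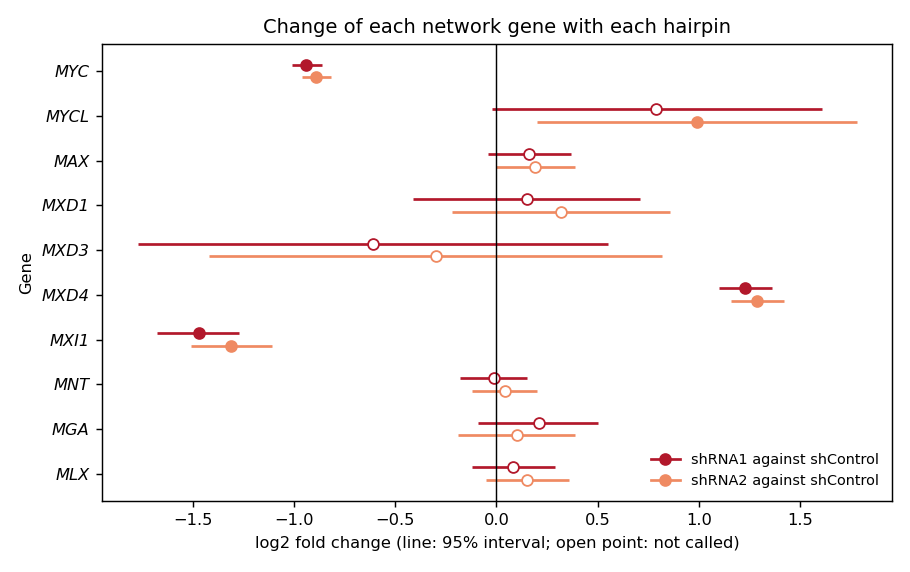
Log2 fold change of each network gene for shRNA1 and for shRNA2 against shControl, with 95% intervals. The estimates of MXI1 are −1.47 and −1.31 and those of MXD4 are 1.23 and 1.29, and the intervals of MNT span 0.

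MXD3, a family member expressed in cycling cells, was uneven between replicates. It stood at 13.9 and 16.5 CPM in shRNA1 and 25.1 and 12.2 CPM in shRNA2, against 24 and 22.5 CPM in shControl. The shRNA2 replicate 1 library was above both shControl libraries, while the other knockdown libraries were below them. The change of −0.45 ± 0.34 on the log2 scale was not called (interval −1.42 to 0.52, adjusted p = 0.334). Without shRNA2 replicate 1 it was −0.78 and called (adjusted p = 3.01e-05). For shRNA1 alone the change was −0.61 ± 0.40 and not called (adjusted p = 0.296), whereas a fit of only the shRNA1 and shControl libraries gave −0.62 and called it (adjusted p = 0.000454). Leaving out either shRNA2 library also brought the shRNA1 change past the threshold, at −0.62 (adjusted p = 0.000615 without replicate 1 and 0.00053 without replicate 2). The annotation places 926 bases of MXD3 exon (18%) on the same strand as exons of RAB24 and 1158 bases (22.5%) opposite exons of PRELID1, and the strand setting of the counting is not given in the sources used here. RAB24, a small GTPase gene, was at 9.74 to 11.1 CPM in the knockdown libraries, against 27.1 and 27.5 CPM in shControl (log2 change −1.39 ± 0.10, adjusted p = 8.69e-09). PRELID1, a mitochondrial lipid transfer gene, was at 119 to 136 CPM in the knockdown libraries, against 63.6 and 60.2 CPM in shControl (1.08 ± 0.06, adjusted p = 4.55e-10). In shRNA2 replicate 1 RAB24 stood at 10.5 CPM and PRELID1 at 119 CPM. Counts per gene do not show how reads from the shared exons were assigned, and their part in the MXD3 counts was not tested.

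**Figure D3:**
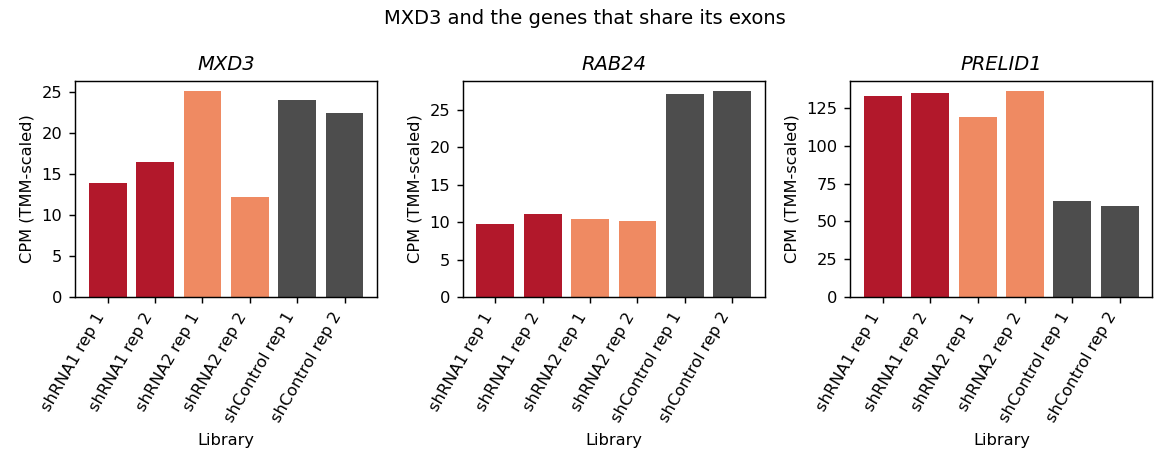
Level in CPM of MXD3 and of the 2 genes that share exon sequence with it, RAB24 and PRELID1, in each library. MXD3 reaches 25.1 CPM in shRNA2 replicate 1 but 12.2 to 16.5 CPM in the other knockdown libraries, while RAB24 is low and PRELID1 high in all 4 of them.

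MXD1, the founding MXD gene, was low in all groups, at 3.42 ± 0.104 CPM in shRNA1, 3.87 ± 0.0821 CPM in shRNA2 and 3.07 ± 0.550 CPM in shControl (SD, n = 2 each). Its change of 0.23 ± 0.22 was not called (interval −0.25 to 0.71, adjusted p = 0.399). MNT, a MAX-binding repressor expressed in most cells, was at 43.4 to 47.2 CPM in the knockdown libraries, against 44.5 and 43.5 CPM in shControl. The groups overlapped, and the change of 0.01 ± 0.07 had the narrow interval of −0.13 to 0.15 (adjusted p = 0.877). MGA, a large repressor that is part of a variant Polycomb complex with MAX and E2F6, was at 37.4 and 27.7 CPM in shRNA1 and 30.3 and 29.8 CPM in shRNA2, against 25.6 and 30.4 CPM in shControl. The high value came from shRNA1 replicate 1, the library that stood apart, and the change of 0.15 ± 0.12 was not called (adjusted p = 0.291). It was called without shRNA1 replicate 2 (0.27, adjusted p = 0.024). MLX was at 25.4 to 28.0 CPM in the knockdown libraries and 24 and 25.7 CPM in shControl, a change of 0.12 ± 0.08 that was not called (interval −0.06 to 0.30, adjusted p = 0.237). In the annotation 770 bases of MLX exon (18.1%) lie opposite exons of PSMC3IP, and 1065 bases of MNT exon (12.2%) opposite AC006435.1. With the strand setting not given, the part of shared reads in these counts was not tested. Scaled by total counts without TMM factors, which lowers the median of all genes to −0.18, MNT and MLX turned to −0.14 and −0.04.

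The Mondo partners of MLX differed from each other. MLXIPL, the gene for ChREBP, had no count in any of the 4 knockdown libraries and 6 counts in each shControl library, and was below the test's filter. Over the whole group its level was 0.257 CPM in shControl (95% Poisson interval 0.133 to 0.449). The upper 95% limits were 0.108 CPM in shRNA1 and 0.0648 CPM in shRNA2. These limits cover counting error only, and the difference was not tested. MLXIP, the gene for MondoA, averaged 303 CPM in shRNA1, 316 CPM in shRNA2 and 310 CPM in shControl, with a log2 change of 0.00 ± 0.03 (adjusted p = 0.951). It was called lower only under total counts (−0.16, adjusted p = 0.000626).

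Per kb of exon, the order of the members shifted. In shControl it ran MYC, MXI1, MAX, MXD4, MLX, MNT, MXD3, MGA, MXD1 and MYCL. In shRNA1 MXD4 stood next to MYC, at 15.6 CPM per kb, and MXI1 below MNT, at 4.78 CPM per kb, against 6.62 and 13.3 CPM per kb in shControl. In shRNA2 MXI1 was below MLX, and the levels of MXD4 and MXI1 were 16.1 and 5.36 CPM per kb. Neighbours whose library ranges overlapped were MNT and MXI1 in shRNA1, MXI1 and MNT in shRNA2, and MAX and MXD4 in shControl, so their order was not distinguished. Levels per kb use the merged exon length of all annotated transcripts, not the isoforms in use.

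The summed level of MXD1, MXD3, MXD4 and MXI1 per kb was 23.9 and 23.8 in shRNA1 and 27.1 and 24.4 in shRNA2, against 24.4 and 25.4 in shControl, in CPM per kb. The groups overlapped on this scale. That overlap depends on the length scaling, which gives MXD4 (7058 bases of merged exon) less weight than MXI1 (4607 bases). In mean CPM, MXD4 was 110 in shRNA1, 114 in shRNA2 and 46.7 in shControl, and MXI1 was 22, 24.7 and 61.2. The makeup of the sum differed: MXD4 supplied 68.1% and 62.6% in shRNA1 and 59.8% and 66.0% in shRNA2, against 27.6% and 25.6% in shControl. MXI1 supplied 18.3% to 21.8% in the knockdown libraries, against 51.6% and 55.1% in shControl. The ratio of MYC to MAX per kb was 10.5 and 10.5 in shRNA1 and 11.1 and 10.2 in shRNA2, against 20.9 and 24.5 in shControl. MYC made up 62.9% to 64.0% of the summed level of the 10 genes in the knockdown libraries, against 77.2% and 77.3% in shControl. These shares follow from the same counts as the changes above and carry no separate test.

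**Figure D4:**
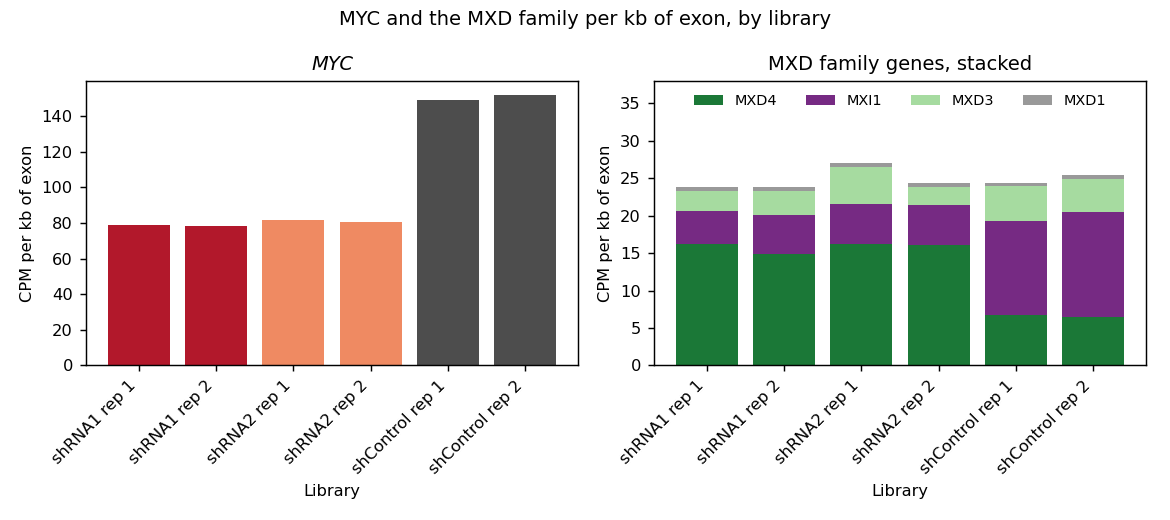
Levels per kb of exon by library, with MYC beside the 4 MXD genes stacked in one bar per library. The MXD sums lie between 23.8 and 27.1 CPM per kb in the knockdown libraries and at 24.4 and 25.4 CPM per kb in shControl, with MXD4 the largest share in the knockdown libraries and MXI1 the largest in shControl. The overlap of the sums depends on the length scaling.

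Between the hairpins, edgeR called 0 of the 10 genes, with 0 at an unadjusted p under 0.05 and 0 by DESeq2, where 0.0312% of all tested genes were called by edgeR. The log2 change of shRNA1 relative to shRNA2 was −0.05 for MYC (interval −0.12 to 0.03), −0.05 for MXD4 (−0.18 to 0.07) and −0.16 for MXI1 (−0.37 to 0.05). For MYCL it was −0.20 (−0.97 to 0.58) and for MXD3 −0.31 (−1.47 to 0.85), intervals too wide to tell the hairpins apart or alike.

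Genes that act on or with the network were read from lists chosen with earlier results of these data known. Each list is given with its count and its median. The median of all tested genes was −0.03 with TMM scaling and −0.18 with total counts, and each list median is read beside the value of the same scaling. Of all tested genes 28.6% were called higher and 28.9% lower. Of 20 tested genes for MYC protein turnover, 11 were higher, 5 lower and 4 not called (median 0.15 with TMM scaling and −0.01 with total counts). STUB1, a ubiquitin ligase that targets MYC, averaged 174 CPM in shRNA1, 188 CPM in shRNA2 and 89.4 CPM in shControl (log2 change 1.01 ± 0.04, adjusted p = 3.48e-11). HUWE1, also a ubiquitin ligase of MYC, rose by 0.53 ± 0.03 (adjusted p = 1.55e-09). FBXO32, the F-box gene atrogin, averaged 6.52 CPM in shRNA1, 5.57 CPM in shRNA2 and 22.5 CPM in shControl (−1.89 ± 0.15, adjusted p = 3.93e-08).

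Of 18 tested genes for MYC cofactors, 9 were higher, 3 lower and 6 not called (median 0.14 with TMM scaling and −0.01 with total counts), with HCFC1 (0.62 ± 0.04, adjusted p = 9.95e-10), a scaffold that MYC binds, and SUPT5H (0.60 ± 0.04, adjusted p = 6.57e-09), a transcription elongation factor, among the higher. TRRAP, the scaffold of histone acetyltransferase complexes, averaged 173 CPM in shRNA1, 176 CPM in shRNA2 and 122 CPM in shControl. Of 17 tested SIN3 and NCOR co-repressor genes, through which MXD proteins act, 8 were higher, 5 lower and 4 not called (median 0.10 with TMM scaling and −0.06 with total counts). HDAC1, the histone deacetylase, averaged 191 CPM in shRNA1, 189 CPM in shRNA2 and 99.2 CPM in shControl (0.94 ± 0.04, adjusted p = 3.33e-11). BRMS1, a SIN3 complex subunit, rose by 0.74 ± 0.06 (adjusted p = 3.74e-08), and NCOR1, a nuclear receptor co-repressor, fell by 0.35 ± 0.03 (adjusted p = 4.4e-07). Of 11 tested genes of the Polycomb complex with MGA, 2 were higher, 2 lower and 7 not called (median 0.12 with TMM scaling and −0.04 with total counts). TFDP1, the partner of E2F proteins, rose by 1.26 ± 0.06 (adjusted p = 6.5e-11), L3MBTL2, a chromatin reader, by 1.17 ± 0.08 (adjusted p = 8.93e-09), and RYBP, a Polycomb adaptor, fell by 0.92 ± 0.07 (adjusted p = 4.8e-08).

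Genes known to be induced by MYC had 24 higher, 8 lower and 4 not called of 36 tested, where 28.6% of all tested genes were higher and 28.9% lower. The list's median was 0.28 with TMM scaling and 0.13 with total counts, which put the median of all tested genes at −0.18. LDHA, lactate dehydrogenase, averaged 3030 CPM in shRNA1, 3000 CPM in shRNA2 and 1520 CPM in shControl (log2 change 0.99 ± 0.02, adjusted p = 5.93e-14). HSPD1 (0.83 ± 0.03, adjusted p = 2.05e-12) and HSPE1 (1.59 ± 0.06, adjusted p = 4.63e-12), which encode the mitochondrial chaperonin and its partner, rose. ODC1 (−0.68 ± 0.05), the rate-limiting enzyme of polyamine synthesis, and SHMT2 (−0.73 ± 0.04), a mitochondrial serine enzyme, were among the 8 that fell, and were picked after their values were seen.

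Genes known to be repressed by MYC had 1 higher, 5 lower and 1 not called of 7 tested, with a median of −1.52 (−1.67 with total counts). PDGFRB, 1 of the 5 lower genes, is also the pericyte marker given above. NDRG1, a stress-responsive gene, averaged 501 CPM in shRNA1, 505 CPM in shRNA2 and 1440 CPM in shControl (−1.52 ± 0.02, adjusted p = 6.74e-16). GADD45A, a stress and DNA damage gene, averaged 18.4 CPM in shRNA1, 15.6 CPM in shRNA2 and 135 CPM in shControl (−2.99 ± 0.07, adjusted p = 2.24e-14). CDKN1A, the p21 inhibitor of cyclin-dependent kinases, averaged 65.2 CPM in shRNA1, 67.5 CPM in shRNA2 and 207 CPM in shControl (−1.64 ± 0.05, adjusted p = 3.09e-12). Several of these genes are also known to respond to hypoxia, p53 or stress.

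Of 7 tested genes known as targets of MLX and Mondo proteins, 3 were higher, 4 lower and 0 not called, with a median of −0.53 (−0.69 with total counts). TXNIP, the thioredoxin-binding arrestin that is a standard readout of MLXIP and MLX, averaged 21.4 CPM in shRNA1, 22.4 CPM in shRNA2 and 73.6 CPM in shControl (−1.75 ± 0.07, adjusted p = 6.65e-12). ARRDC4, its arrestin relative, fell by 0.53 ± 0.17 (adjusted p = 0.0158), a call lost in 5 of 14 other settings, among them without shControl replicate 1 (−0.55, adjusted p = 0.0687) and without shControl replicate 2 (−0.52, adjusted p = 0.0966). HK2, a hexokinase, averaged 88.7 CPM in shRNA1, 91 CPM in shRNA2 and 227 CPM in shControl (−1.33 ± 0.04, adjusted p = 1.2e-12). FASN, fatty acid synthase, averaged 773 CPM in shRNA1, 794 CPM in shRNA2 and 225 CPM in shControl (1.80 ± 0.04, adjusted p = 6.54e-15), and PFKFB3, a glycolytic regulator, rose by 1.24 ± 0.03 (adjusted p = 6.05e-14).

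**Figure D5:**
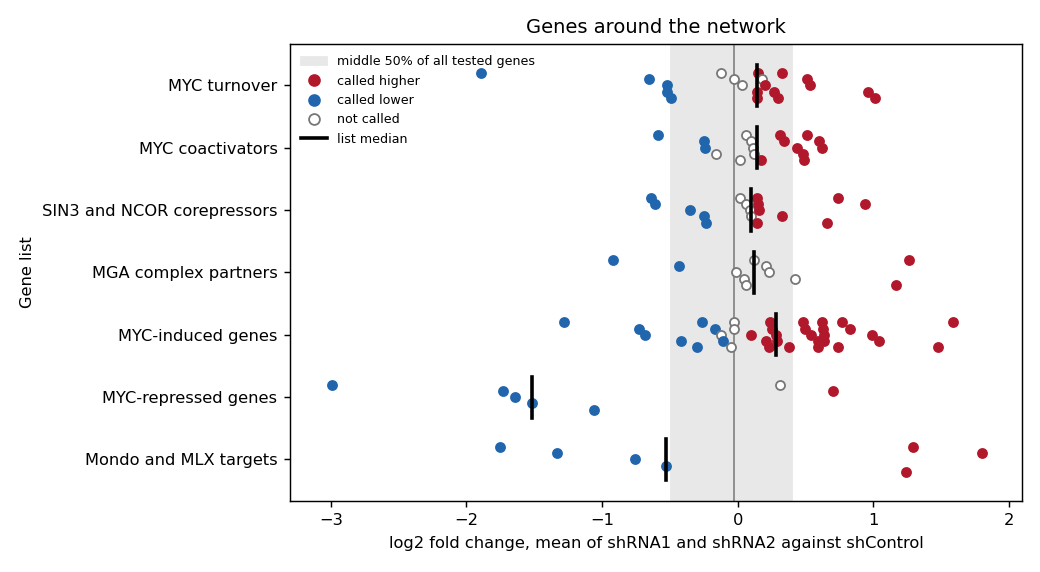
Log2 fold change, mean of both hairpins against shControl, of each tested gene in the 7 lists, with list medians. The MYC-repressed list has its median at −1.52 and the MYC-induced list at 0.28, beside −0.03 for all tested genes.

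The genes whose profiles lay nearest to MYC were found by Euclidean distance between log2 CPM profiles over the 6 libraries, each centred on its shControl mean, among 9204 coding genes with a mean of at least 10 CPM. They were MARS1, the methionyl-tRNA synthetase (distance 0.0379), ZNF451 (0.0605), TSC22D3 (0.0618) and DAB2, an endocytic adaptor (0.0636), beside a median distance of 1.97. MARS1 averaged 151 CPM in shRNA1, 155 CPM in shRNA2 and 290 CPM in shControl. The nearest to MXI1 were SDK1 (0.164), FOSL1 (0.187), an AP-1 subunit gene, RAB24 (0.201) and HK2 (0.212), beside a median of 2.92. FOSL1 averaged 171 CPM in shRNA1, 178 CPM in shRNA2 and 447 CPM in shControl. With profiles of 6 libraries in 3 groups, a small distance says that the size of the step between knockdown and shControl was alike.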

How the data were processed

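Per the labels, TRIzol total RNA of 786-O cells was sequenced as paired-end Illumina libraries made with an Abclonal kit. The authors deposited whole-number counts per gene for 6 libraries. Per the submitters' processing notes, FastQC 0.11.9, Trim Galore 0.6.7, HISAT2 2.2.1 and StringTie 2.2.1 were used with hg38; neither the counting tool nor the annotation nor the strand setting is stated there.

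Genes passed filterByExpr by group. TMM-scaled counts were fitted with edgeR 4.0.16 (R 4.3.3, robust quasi-likelihood, all 6 libraries, no covariate, 3 residual degrees of freedom). SEs are the log2 change over the root of F. Alternatives were RLE factors, total counts, DESeq2 1.42.0, no filter, a stricter filter, a replicate block, glmTreat at a fold of 1.2, a fit to the compared groups alone, a correction for exon length and GC (mgcv 1.9.3) and leaving out each library. The code was tested on simulated data. Exon lengths came from GENCODE 29, matched by ID without version (58381 IDs, 96.3%).

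The 10 genes and all lists were chosen with earlier results of these data known. Named genes are the 10, LINC02068, MYCN, MLXIP and MLXIPL, the 3 called genes with the smallest p of each list, TXNIP, ARRDC4, and the 4 profiles nearest to MYC and to MXI1. EPAS1, ODC1, SHMT2 and the overlapping neighbours of MXD3, MLX and MNT were named after their values were seen. A further marker gene is not reported here.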

Additional observations from a re-analysis of the deposited data

How the results depend on the processing

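Of 915 gene values under the alternatives, 851 kept direction and side of the threshold, 27 lost a call, 13 gained one and 24 changed sign. MYC, MXD4 and MXI1 were called under every alternative run, for the mean of both hairpins and for each hairpin. Network genes called numbered 3 to 5 for the mean, 3 to 4 for shRNA1, 3 to 5 for shRNA2 and 0 between hairpins. Replicate numbers did not pair libraries (correlations of same-numbered deviations 0.02, −0.09 and −0.18), and a replicate block left 4 network genes called for the mean and called 9 genes in all between hairpins. Between hairpins DESeq2 called 17 genes, no filter 69, a fit to only those groups 16, and fits without a library 12 to 31. The causes of these shifts were not tested.

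Total counts without TMM factors turned several small changes: MNT to −0.14 (mean) and −0.12 (shRNA2), MGA to 0.00 (mean) and −0.06 (shRNA2), MLX to −0.04 (mean), −0.07 (shRNA1) and 0.00 (shRNA2), and MXD1 to −0.01 (shRNA1). The same scaling gave list medians of −0.01 for MYC turnover, −0.01 for cofactors, −0.06 for co-repressors and −0.04 for the MGA Polycomb complex. Its median for all tested genes was −0.18. Total counts made 36% of called genes higher (49.7% with TMM), and the length and GC correction 57.1%. MNT was −0.01 with no filter and −0.01 with the stricter filter, and with the length and GC correction MLXIP was 0.00 and MNT 0.03 (shRNA1). Leaving out a library gave ranges of −0.02 to 0.04 for MNT and −0.04 to 0.02 for MLXIP (mean), of −0.03 to 0.34 for MXD1, −0.04 to 0.01 for MNT and 0.00 to 0.42 for MGA (shRNA1), and of −0.93 to 0.11 for MXD3, −0.02 to 0.09 for MNT and −0.03 to 0.22 for MGA (shRNA2). A test against a fold of 1.2 called 9 turnover, 7 cofactor, 7 co-repressor and 20 MYC-induced genes, the length and GC correction called 7 Polycomb genes, and co-repressor calls ran from 8 (without shControl replicate 2) to 13 without a library. Low counts limit MYCL, MXD1 and LINC02068.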
